A study of Mus musculus with 9 samples.

Results

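M1 macrophages were compared with resting M0 macrophages, both grown from the bone marrow of wild-type C57BL/6 mice aged 6 to 8 weeks. Marrow cells from femur and tibia were cultured for 7 days with M-CSF, the growth factor that turns marrow precursors into macrophages, and M1 cells were then exposed to LPS, a component of the outer membrane of Gram-negative bacteria, together with IFN-γ for 12 hours. The M0 cells received neither agent, and no cells of either group received photobiomodulation (PBM), the light treatment given to the cells of the other 3 libraries. The 3 M0 and 3 M1 libraries are 6 of the 9 libraries of the series. They were taken by their labels, and rows were kept where the FPKM (fragments per kilobase of transcript scaled to the mapped fragments of the library) reached 1 in at least 3 of these 6 libraries. This left 13593 of 55655 rows. Values given for single libraries are FPKM, in the order of replicates 1, 2 and 3, and differences are M1 minus M0 on the log2 scale. The study describes the sequencing experiment as independently repeated, but neither it nor the labels say whether replicates came from separate mice or cultures. The p-values therefore measure only the spread between these samples, and how much of it is technical is not known. Sex-linked genes, given below, differed within both groups, so the libraries of a group were not all drawn from the same cells.

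Macrophages that meet LPS and IFN-γ together pass into a state called M1 or classically activated. LPS is read by Toll-like receptor 4, which drives the transcription factors NF-κB and IRF3 and the release of type I interferon, while IFN-γ acts through the kinases JAK1 and JAK2. Cells in this state are known for inflammatory cytokines, nitric oxide, itaconate and antigen presentation, for a lower rate of division, and for a retreat from the scavenging and lipid-handling programme of resting macrophages. In whole-culture RNA, fewer cells of a type and less RNA per cell cannot be told apart.

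The values were deposited in separate tables for M0 and M1, with the same rows in the same order, so the table and the state cannot be told apart. The 3 most abundant rows, Rn7s1, Rn7s2 and Gm47299, of which the first pair are RNAs of the signal recognition particle, together made up 31.4% to 37.8% of the FPKM in each library. Between 13532 and 14065 rows reached an FPKM of 1 in the M0 libraries and between 11516 and 12142 in the M1 libraries. The first principal component held 81.9% of the variance and separated M0 from M1, and the second, with 8.35%, separated M0 replicate 2 from M0 replicate 3. M0 replicate 3 stood apart in 2 respects. The summed FPKM of 18 stromal markers, such as collagens, was 421.2 in it against 19.6 and 16.3 in M0 replicates 1 and 2 and between 28.3 and 35.2 in M1. It also held inflammatory transcripts between the levels of the other M0 libraries and those of M1, so that Tnf, for example, stood at 16.9, 14.9 and 233 in M0 and 375, 443 and 295 in M1. M1 replicate 2 carried liver transcripts, with a summed FPKM of 24.1 over 10 liver genes against 0.756 to 3.61 in the other 5 libraries. The Y-linked genes Ddx3y, Eif2s3y, Kdm5d and Uty were above 0 in every library but M1 replicate 3, and Xist was at 23.6, 0 and 0.00770 in M0 and 11.6, 0.00154 and 55.7 in M1, so the sex of the cells was not the same in all libraries. The study, in contrast, states that its mice were all male. What these differences between libraries contributed to the results was not tested. Where the counts given for a list below differed without M0 replicate 3, they are also given without it.

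The cells carried the markers of macrophages in both states. Lyz2, which encodes lysozyme, stood at 5160.5, 6821 and 8773 in M0 and 6263, 4265 and 3515 in M1, and Csf1r, the receptor for M-CSF, at 332, 343 and 294 in M0 and 256, 302 and 156 in M1; the groups overlapped for both. Among 18 identity genes, 6 rose and 2 fell, with a median log2 difference of 0.17. The high-affinity IgG receptor Fcgr1 rose by 3.49, and the macrophage surface protein Adgre1 (F4/80) rose from 299, 326 and 311 to 711, 638 and 618, a log2 difference of 1.07. The transcription factor Cebpa fell by 2.52 on the log2 scale. The summed FPKM of 16 neutrophil markers ran from 15.8 to 28.5 in M0 and from 195 to 331 in M1, through Csf3r, Lcn2 and S100a8, which rose. Ly6g, Mpo and Elane, which define neutrophils or their precursors, were under an FPKM of 0.5 in all 6 libraries. Defining markers of T cells and of mast cells (Cd3e, Mcpt4) were likewise under 0.5 throughout. Of 8 markers of mast cells and basophils, 1 could be tested. It was lower in every M1 library than in any M0 library but was not called (log2 difference -0.98). Without M0 replicate 3 it was called lower (-1.04). None of the 9 stromal markers that could be tested was called with all libraries, with a median log2 difference of -0.84. Without M0 replicate 3 their median was 0.57, and Pdgfrb and Fbn1 were called higher in M1 (1.55 and 1.35). For macrophage identity the counts without M0 replicate 3 were 6 higher and 3 lower and for stromal cells 2 and none. Adgre1 was also not called under quantile normalization (log2 difference 0.87, limma adjusted p = 0.0022).

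A row was called where the adjusted p of limma (Benjamini-Hochberg over all 13593 rows) was under 0.05 and the log2 difference of FPKM + 1, M1 minus M0, was at least 1 in size. On this scale the change of genes with low FPKM is understated. By this rule 1062 rows (7.81%) were higher in M1 and 1896 (13.9%) were lower. The counts of all gene lists are to be read beside these shares. The median difference over all rows was -0.346, and scaling each library by the median, over rows, of its ratios to an average library (median of ratios) moved it to -0.006, with 1519 rows higher (11.2%) and 1047 lower (7.70%). All 1062 rows called higher kept their call under this scaling, against 1047 of the 1896 rows called lower (55.2%). Without M0 replicate 3, 1172 rows (8.62%) were higher and 1982 (14.6%) lower, which included 1040 of the 1062 and 1728 of the 1896, and none turned its direction. Without M1 replicate 2 as well, 9.06% of the rows were higher and 16.2% lower. Rises reached further than falls. Of the rows called higher, 229 differed by at least 3 on the log2 scale and 35 by at least 6; of those called lower, 78 and 1 did. All 3 M1 libraries lay above all 3 M0 libraries for 1055 of the 1062 rows called higher and for 15.3% of all rows, and below them for 1885 of the 1896 called lower and for 51.5% of all rows. After median-of-ratios scaling the shares of all rows were 29.1% and 28.3%. M0 replicate 3 was the highest of the M0 libraries in 73.7% of the rows called higher and in 39.1% of all rows.

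**Figure D1:**
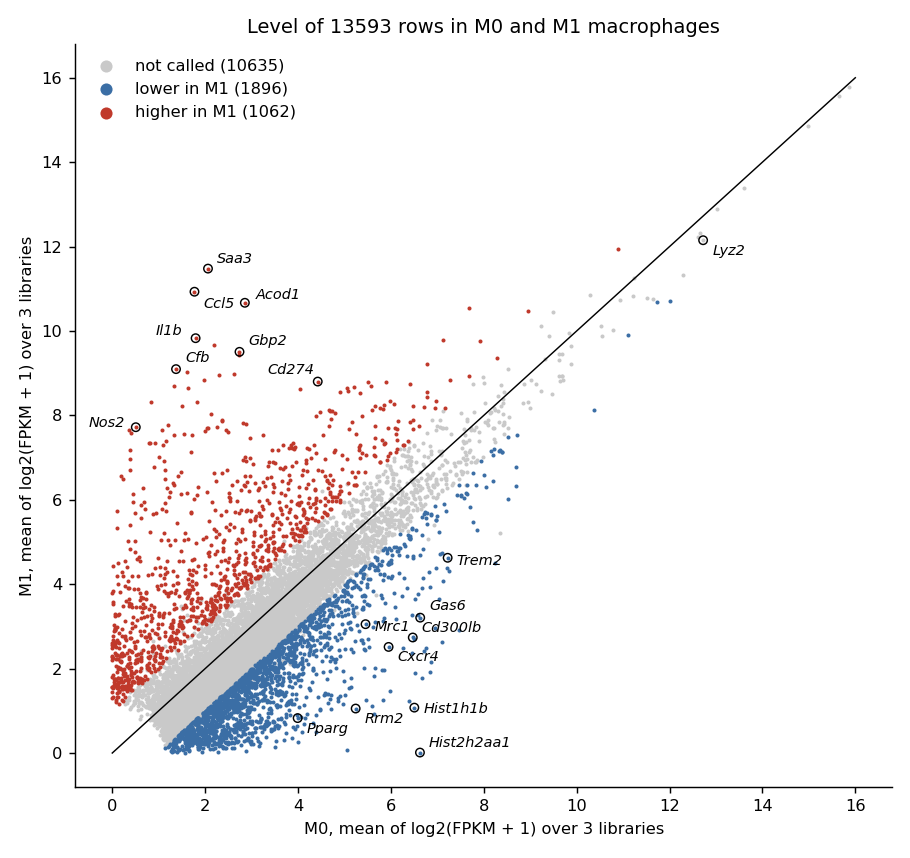
Each point is 1 of 13593 rows, with the mean of log2(FPKM + 1) over the 3 M0 libraries on the horizontal axis and over the 3 M1 libraries on the vertical axis; red points were called higher in M1 (1062), blue points lower (1896), grey points neither, and the line marks equal levels. The red points reach further from the line than the blue ones, with Saa3, Ccl5, Il1b and Acod1 farthest above it and the histone genes Hist2h2aa1 and Hist1h1b farthest below.

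The markers by which the study followed polarization moved apart. Nos2, the inducible nitric oxide synthase, stood at 0.0147, 0.0133 and 1.79 in M0 and 290.0, 112 and 284 in M1, a log2 difference of 7.21, SE 0.52, limma adjusted p = 0.00032. Cd86, a costimulatory ligand for T cells, rose from 0.715, 0.917 and 1.35 to 12.99, 12.4 and 15.9, by 2.89. Mrc1, the mannose receptor CD206 used as a marker of the M2 state, fell from 25.3, 57.1 and 54.1 to 7.64, 13.4 and 3.60, a log2 difference of -2.40 (limma adjusted p = 0.0065). Arg1, the arginase that marks M2 cells in mice, was below the limit for testing, at 0.292, 0.248 and 0.311 in M0 and 6.24, 0.775 and 1.55 in M1. All 3 M1 libraries of Arg1 lay above the M0 libraries, by a wide margin only in M1 replicate 1. Of 22 tested markers of the M1 state, 20 rose, and Irf5 (-0.09) and Cd80 (-0.16) were not called. Of 11 tested markers of the M2 state, 6 fell and 2 rose. The nuclear receptor Pparg fell from 16.9, 21.2 and 9.12 to 0.537, 0.791 and 1.03, and the chemokine Ccl22 and the interleukin 4 receptor chain Il4ra were the 2 M2 markers that rose, by 2.52 and 2.13. Chil3, Retnla, Cd163 and Clec10a, other M2 markers, did not pass the limit on low values. Under median-of-ratios scaling 4 of the 11 M2 markers fell.

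**Figure D2:**
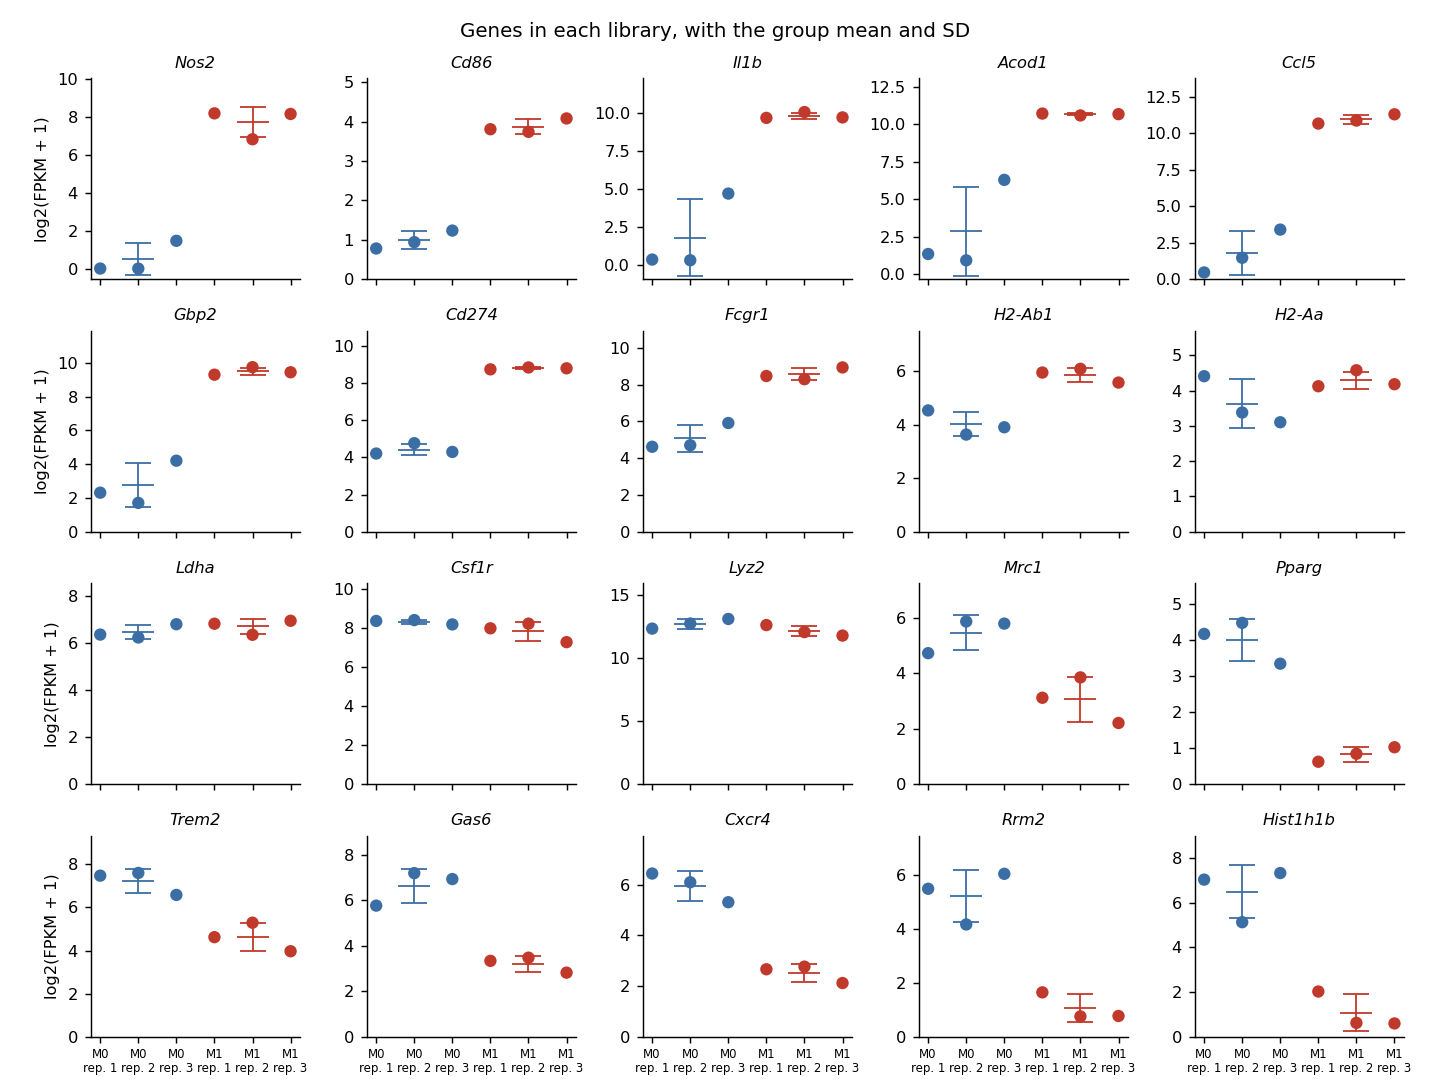
The panels show log2(FPKM + 1) of 20 genes in each of the 3 M0 (blue) and 3 M1 (red) libraries, with the group mean and SD as horizontal line and bars; the vertical axes differ between panels. For Nos2, Il1b, Acod1 and Ccl5 M0 replicate 3 lies above the other M0 libraries and far below every M1 library, while Csf1r, Lyz2, Ldha and H2-Aa overlap between the groups.

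A list of 12 genes held Il6, Ptgs2, Il1a, Cxcl3, F3, Cxcl1, Nos2, Notch1 and Hif1a, named by the study in its comparison of PBM-treated and untreated M1 cells, together with Il1b, Adora2b and Rela. That comparison shares the M1 libraries used here, so the direction of these genes against M0 is not independent evidence. Of the 11 that could be tested, 9 were higher in M1 than in M0 and none was lower. Notch1, a receptor that signals through its cleaved intracellular part, rose from 9.85, 8.14 and 8.59 to 39.7, 35.5 and 37.4 (1.97). Hif1a, the oxygen-regulated transcription factor, rose by 1.81, and the adenosine receptor Adora2b by 3.69. The NF-κB subunit Rela stood at 19.7, 22.2 and 29.7 in M0 and 29.3, 37.0 and 33.7 in M1, which was not called. F3 (tissue factor) did not reach the limit for testing, at 0.852, 0.261 and 1.09 in M0 and 1.01, 0.157 and 0.489 in M1. Cxcl1 was not called, with M0 replicate 3 at 13.3, between the M1 libraries at 6.23 and 23.4, and it was called without that library (log2 difference 3.19, limma adjusted p = 0.006). For the list of 12 genes the counts without M0 replicate 3 were 10 higher and none lower. Cxcl3 was also not called without M0 replicate 3 and M1 replicate 2 together (log2 difference 2.46, limma adjusted p = 0.054).

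Cytokine genes held some of the largest changes. Of 23 tested, 16 rose and 2 fell, with a median of 3.18; without M0 replicate 3, 18 rose. Il1b, the inflammatory cytokine cleaved by caspase-1, stood at 0.285, 0.244 and 25.1 in M0 and 826, 1077 and 844 in M1. Its close relative Il1a stood at 0.237, 1.003 and 10.3 in M0 and 583, 679.6 and 354 in M1. In both genes M0 replicate 3 was above the other M0 libraries and below all M1 libraries. Il12b, the p40 chain that interleukins 12 and 23 share, was at 0.00815, 0 and 0.236 in M0 and 33.0, 53.3 and 81.4 in M1, and its partner for interleukin 12, Il12a, was too low to test, at 0, 0 and 0.0786 in M0 and 7.13, 15.8 and 0.981 in M1. Il23a, the partner for interleukin 23, did not reach 0.5 in any library. Il6 rose by 4.08, Il27 by 4.72, and the colony-stimulating factor Csf3 by 3.72, with M1 values between 3.60 and 45.6. Il1rn and Il10, which restrain inflammation, rose as well. The interleukin 1 receptor antagonist Il1rn stood at 3.40, 0.782 and 3.30 in M0 and 149, 83.2 and 218 in M1 and Il10 at 0.735, 0.705 and 2.57 in M0 and 15.5, 5.36 and 38.2 in M1. The genes called lower were Igf1, an insulin-like growth factor, from 59.6, 68.2 and 44.1 to 7.35, 14.8 and 4.74, and Vegfa, from 4.11, 3.36 and 5.90 to 1.29, 0.411 and 1.24. Tnf rose by 3.18 with an adjusted p of 0.033 (limma), and by 4.44 without M0 replicate 3 (9.8e-05). For cytokines and growth factors the counts without M0 replicate 3 were 18 higher and 2 lower. The call of Tnf ended without M0 replicate 1 or 2 or M1 replicate 1, 2 or 3 (log2 difference 2.50 to 3.33, limma adjusted p = 0.073 to 0.1). Vegfa was also not called without M0 replicate 3 under median-of-ratios scaling (log2 difference -0.98, limma adjusted p = 0.035). Tnf was also not called under quantile normalization (log2 difference 2.95, limma adjusted p = 0.062) or with no minimum FPKM (3.18, 0.084).

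Receptors for cytokines rose more often than they fell. Among 23 tested, 10 rose and 3 fell, beside 7.81% of all rows called higher and 13.9% called lower. Il15ra, which presents interleukin 15 to lymphocytes, rose from 1.39, 1.08 and 1.37 to 17.4, 19.4 and 19.1, and Tnfrsf1b, the second receptor for TNF, from 159, 168 and 98.1 to 872, 872 and 895. Ifnar2, a chain of the type I interferon receptor, rose by 1.09, while Ifngr1, the chain that binds IFN-γ, fell from 19.8, 22.4 and 25.3 to 8.73, 7.42 and 7.57 (-1.40). Il6st, the shared signalling chain gp130, fell by 1.86 on the log2 scale. Under median-of-ratios scaling 13 of the 23 rose and 1 fell, beside 11.2% and 7.7% of all rows. For cytokine receptors the counts without M0 replicate 3 were 10 higher and 4 lower. The call of Ifngr1 (-0.98) ended under median-of-ratios scaling. Ifnar2 was also not called under quantile normalization (log2 difference 0.98, limma adjusted p = 0.0012). Ifngr1 was also not called without M0 replicate 3 under median-of-ratios scaling (log2 difference -0.89, limma adjusted p = 0.0065).

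Of 20 tested chemokines, 15 rose and 1 fell, with a median of 3.01. Ccl5, which draws T cells and monocytes, had the second largest rise of all rows, at 0.373, 1.75 and 9.49 in M0 and 1606, 1854 and 2491 in M1 (log2 difference 9.16, SE 0.69, limma adjusted p = 0.00035). Cxcl10, a ligand of the T cell receptor CXCR3 and a classic target of interferon, stood at 0.491, 0.154 and 16.1 in M0 and 397, 313 and 523 in M1. The monocyte chemoattractants Ccl12, Ccl7 and Ccl2 rose by 5.02, 4.28 and 3.33. In all 3 genes M1 replicate 2 was the lowest M1 library, and for Ccl7 it was at 48.0 against 46.5 in M0 replicate 3. Ccl3 was already at 23.4 to 57.8 in M0 and reached 350.4 to 501 in M1. Cxcl14 was the one chemokine that fell, from 18.3, 5.79 and 6.65 to 1.21, 0.450 and 0.401. Among receptors for chemoattractants, the formyl peptide receptors Fpr1 and Fpr2 rose by 6.71 and 6.59, and the atypical receptor Ccrl2 by 3.76. Cxcr4, which holds cells at sources of its ligand CXCL12, fell from 86.0, 67.5 and 38.7 to 5.32, 5.80 and 3.34 (-3.44, SE 0.32, limma adjusted p = 0.0006). C5ar1, the receptor for the complement fragment C5a, was at 12.9, 13.2 and 167 in M0 and 6.91, 8.68 and 37.1 in M1 and was not called. For chemokines the counts without M0 replicate 3 were 17 higher and 1 lower and for chemoattractant receptors 3 and 1. The call of Ccl7 ended without M0 replicate 1 or 2 or M1 replicate 1 or 3 (log2 difference 3.57 to 4.03, limma adjusted p = 0.063 to 0.073). That of Ccl2 ended without M0 replicate 1 or M1 replicate 1 or 3 (log2 difference 2.99 to 3.20, limma adjusted p = 0.059 to 0.064). Ccl7 was also not called with no minimum FPKM (log2 difference 4.28, limma adjusted p = 0.06). Ccl2 was also not called with no minimum FPKM (log2 difference 3.33, limma adjusted p = 0.053).

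Genes that interferons switch on rose with few exceptions. Of 54 tested interferon-stimulated genes, 52 rose and none fell, against 7.81% of all rows called higher, with a median of 3.45. Rsad2 (viperin), an antiviral enzyme, stood at 1.58, 0.988 and 17.9 in M0 and 771, 649 and 1091 in M1, Ifit1, which binds viral RNA, at 1.02, 0.554 and 18.3 in M0 and 423, 431 and 518 in M1, and the ubiquitin-like modifier Isg15 at 2.63, 1.19 and 36.4 in M0 and 625, 627 and 828 in M1. Ifit1bl1 and Slfn4 rose by 7.28 and 7.16. The genes not called were Ifi207, at 0.68 with no overlap of the groups, and Ifi27l2a, at 83.3, 13.5 and 153 in M0 and 126, 69.5 and 493 in M1, where M0 replicate 3 exceeded both lower M1 libraries. Ifitm3, a membrane protein that blocks viral entry, had the highest level of the list, at 170.2, 68.9 and 735 in M0 and 1369.8, 1400.4 and 1756 in M1. Mean levels of the list were 2.60, 2.18 and 4.11 in the M0 libraries and 6.97, 6.90 and 7.25 in M1 (log2 of FPKM + 1), so M0 replicate 3 was nearer to M1 than the other M0 libraries were. Without it, 52 of the 54 rose, with a median of 3.91. The call of Ifitm3 ended without M0 replicate 1 or M1 replicate 1 or 3 (log2 difference 2.73 to 2.93, limma adjusted p = 0.053 to 0.065). Ifitm3 was also not called with no minimum FPKM (log2 difference 2.86, limma adjusted p = 0.059).

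The GTPases that interferon induces against intracellular microbes rose likewise. Of 10 tested guanylate-binding proteins, 9 rose, with a median of 4.60. Gbp2 stood at 3.96, 2.26 and 17.5 in M0 and 633, 863 and 700.1 in M1 (log2 difference 6.77, SE 0.60, limma adjusted p = 0.00054) and Gbp5, which also promotes inflammasome assembly, at 0.301, 0.143 and 2.46 in M0 and 139, 196 and 152 in M1. Gbp8 was the one not called, at 0.77. Of the immunity-related GTPases all 10 rose, with a median of 4.14, led by Tgtp2 and Tgtp1, at 5.79 and 4.95, and Iigp1, at 4.53. Tgtp1 and Tgtp2 are near-identical copies, as are several of the Gbp genes, so the split of fragments between copies is uncertain.

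The promoters of such genes show the letters that their factors are known to bind. Promoter windows of RefSeq on GRCm38.p6, from 250 bases before to 50 bases after the start of transcription, were searched on both strands for an ISRE (GAAANNGAAA, bound by IRF factors), a GAS (TTCNNNGAA, bound by STAT factors), a κB motif (GGGANNTTCC or GGAANNTCCC, bound by NF-κB) and an E2F motif (TTTCCCGC). A window can hold several motifs, and matches can overlap. By symbol, 646 genes called higher were matched to 814 windows, 1245 called lower to 1588, and all genes tested to 10532. An ISRE lay in 13.1% of the windows of genes called higher, in 2.58% of those called lower, in 3.39% of those of all genes tested and in 3.44% of all 32851 windows. The shares for a GAS were 11.2%, 6.05%, 6.91% and 8.30%, and for a κB motif 3.44%, 1.64%, 1.61% and 1.47%. For the E2F motif they ran the other way, at 0.737%, 3.34%, 2.08% and 1.07%. Among the interferon-stimulated genes 26 of 51 windows (51.0%) held an ISRE, among the guanylate-binding proteins 5 of 6, and among the immunity-related GTPases 6 of 7. A match is only a match of letters. The 250 bases before the start are shown for the guanylate-binding proteins and chemokines with the largest rises among those that were matched and whose windows held an ISRE, GAS or κB motif, as examples of how these motifs sit before genes that rose, with the motifs in capitals. Ccl5 was not matched.
Gbp2, chr3:142620413-142620662, plus strand: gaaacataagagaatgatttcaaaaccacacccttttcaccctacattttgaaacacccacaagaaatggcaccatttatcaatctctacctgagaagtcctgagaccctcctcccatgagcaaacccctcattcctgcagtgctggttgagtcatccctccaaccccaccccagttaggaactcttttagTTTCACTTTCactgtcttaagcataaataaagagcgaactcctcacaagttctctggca
Gbp5, chr3:142496684-142496933, plus strand: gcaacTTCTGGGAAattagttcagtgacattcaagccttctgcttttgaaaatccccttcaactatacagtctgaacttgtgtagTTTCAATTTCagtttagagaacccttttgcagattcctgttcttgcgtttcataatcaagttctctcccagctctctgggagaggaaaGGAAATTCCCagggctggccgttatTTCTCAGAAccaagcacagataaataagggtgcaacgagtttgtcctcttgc
Cxcl10, chr5:92348890-92349139, minus strand: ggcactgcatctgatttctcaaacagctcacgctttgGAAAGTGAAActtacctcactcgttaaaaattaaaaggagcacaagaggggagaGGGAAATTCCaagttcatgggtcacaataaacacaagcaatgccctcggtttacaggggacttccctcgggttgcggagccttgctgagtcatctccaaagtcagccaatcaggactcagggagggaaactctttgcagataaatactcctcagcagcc
Cxcl2, chr5:90903649-90903898, plus strand: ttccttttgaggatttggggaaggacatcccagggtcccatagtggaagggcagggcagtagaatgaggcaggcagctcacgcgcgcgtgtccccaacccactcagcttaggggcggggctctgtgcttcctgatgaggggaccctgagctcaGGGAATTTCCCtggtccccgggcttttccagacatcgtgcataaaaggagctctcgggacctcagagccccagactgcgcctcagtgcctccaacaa
In Gbp2 an ISRE began 59 bases before the start. Gbp5 held a GAS at 245, an ISRE at 165, a κB motif at 77 and a second GAS at 52 bases before the start. In Cxcl10 an ISRE at 213 and a κB motif at 159 stood apart, and Cxcl2 had 2 κB matches that overlap, at 97 and 96. Cxcl2, which attracts neutrophils, was at 2.72, 0.936 and 65.0 in M0 and 162, 83.6 and 61.1 in M1 (log2 difference 3.60, limma adjusted p = 0.047), with M0 replicate 3 above the lowest M1 library. The call of Cxcl2 ended without M0 replicate 1 or 2 or M1 replicate 1, 2 or 3 (log2 difference 2.60 to 3.91, limma adjusted p = 0.086 to 0.13). Cxcl2 was also not called under quantile normalization (log2 difference 3.58, limma adjusted p = 0.074), with no minimum FPKM (3.60, 0.11), with a minimum mean FPKM of 5 (3.60, 0.053) or with a pseudocount of 0.1 (4.03, 0.052).

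**Figure D3:**
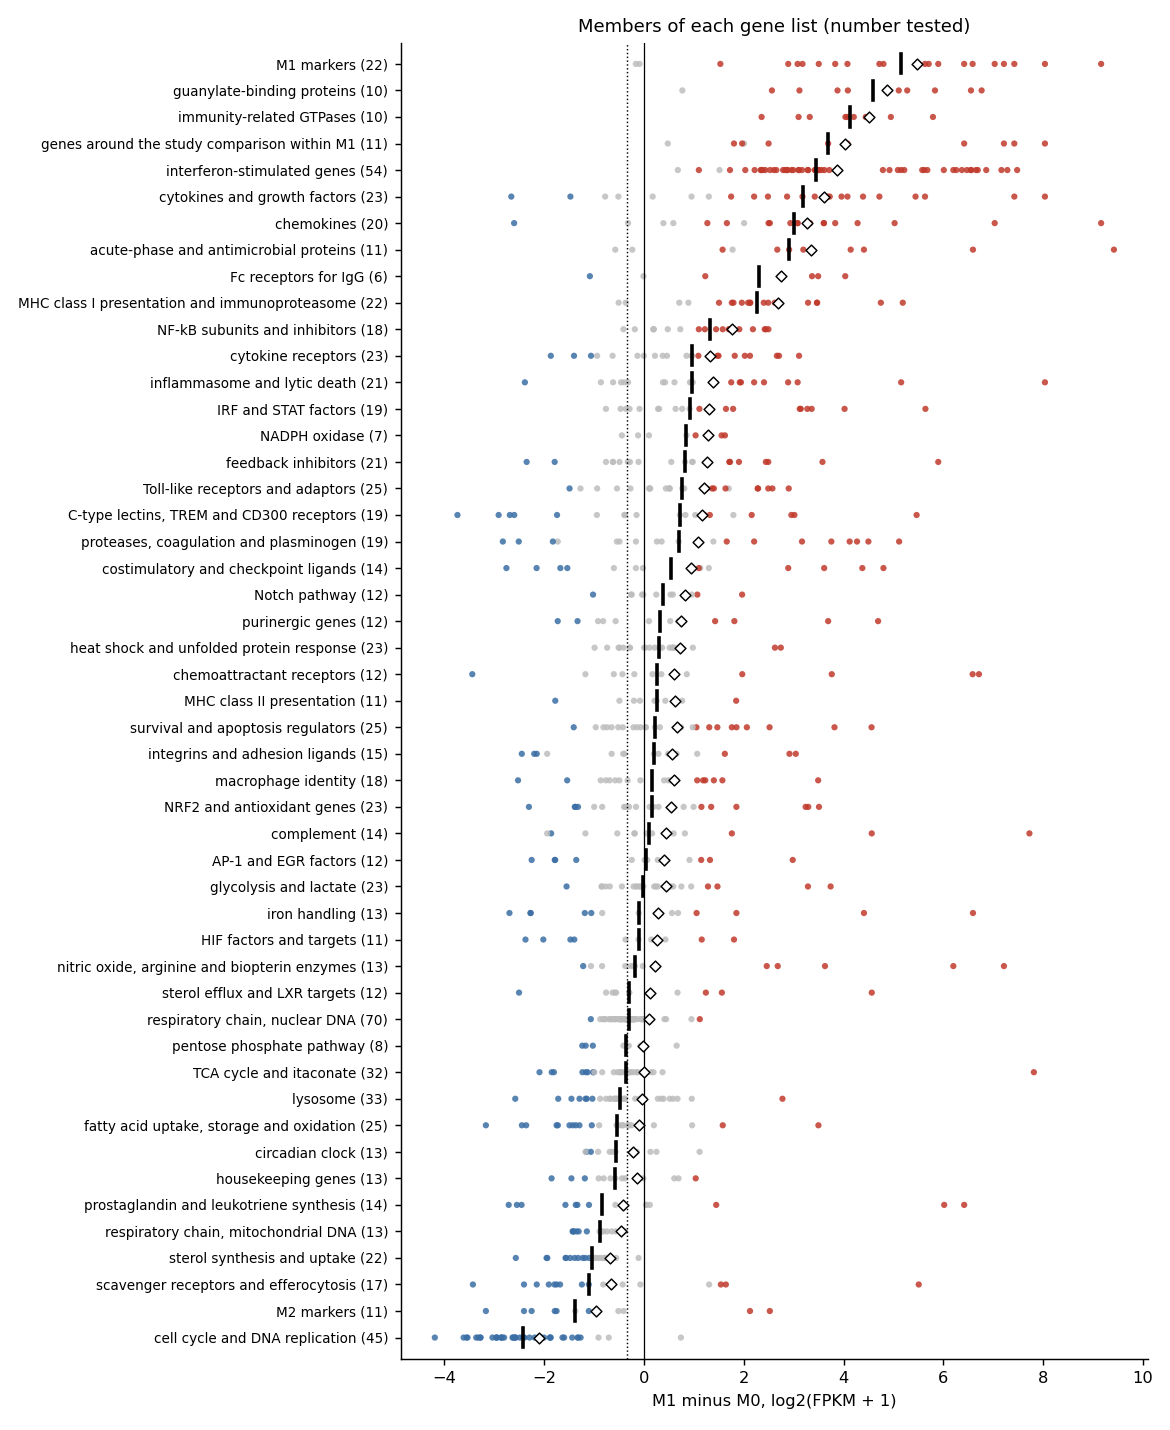
Each row is a list of genes (number tested in brackets), ordered by its median; points are the log2 differences of members, M1 minus M0, in red where called higher, blue where called lower and grey otherwise. The black bar is the median of the list, the diamond its median under median-of-ratios scaling, and the dotted line the median of all rows (-0.346); the M1 markers and the interferon-induced GTPases lie farthest to the right, and the cell cycle list farthest to the left.

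Genes that load peptides on MHC class I, which shows them to CD8 T cells, mostly rose. Of 22 genes of class I presentation and the immunoproteasome, 18 rose and none fell, with a median of 2.27. The light chain B2m rose from 454, 399 and 674 to 1280.5, 1406 and 1558, the peptide transporter Tap1 from 5.36, 3.90 and 11.5 to 72.2, 82.4 and 84.8, and Nlrc5, the transactivator of class I genes, by 2.67. H2-Q6 and H2-Q7 rose by 5.19 and 4.75, but they belong to a family of near-identical genes. The 4 genes not called were H2-D1 (0.89), Erap1 (0.71), Pdia3 (-0.36) and Calr (-0.51). Of 11 genes of class II presentation to CD4 T cells 1 rose and 1 fell, which is near the 7.81% of all rows called higher and the 13.9% called lower. H2-Ab1 rose from 22.2, 11.4 and 13.96 to 60.9, 67.1 and 46.7 (1.85, SE 0.26, limma adjusted p = 0.002), while H2-Aa, which encodes its partner chain, was at 20.2, 9.39 and 7.58 in M0 and 16.4, 22.9 and 17.1 in M1, and the M0 and M1 values overlapped. The class II transactivator Ciita ranged from 0.726 to 4.27 in M0 and from 0.448 to 4.56 in M1. Ifi30, a lysosomal thiol reductase that unfolds antigens, fell by 1.77 on the log2 scale. Under median-of-ratios scaling Cd74 and H2-Aa were called higher as well, at 1.21 and 1.08.

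Of 14 tested costimulatory and checkpoint ligands, 5 rose and 4 fell. Cd274 (PD-L1), the ligand that restrains T cells through PD-1, stood at 17.5, 26.2 and 18.7 in M0 and 429, 460.5 and 446 in M1 (log2 difference 4.38, SE 0.17, limma adjusted p = 5.8e-05). Cd40, through which T cells license macrophages, rose from 0.470, 0.478 and 1.83 to 41.6, 54.0 and 55.7, and Lgals9 rose by 3.61. Havcr2 (TIM-3), Vsir (VISTA), Cd276 and Cd200r1 fell (log2 differences of -2.75, -2.15, -1.67 and -1.53). Havcr2 went from 14.4, 8.08 and 9.14 to 0.911, 0.468 and 0.653. For costimulatory and checkpoint ligands the counts without M0 replicate 3 were 7 higher and 4 lower. The call of Cd200r1 (-1.13) ended under median-of-ratios scaling. The call of Cd200r1 ended without M0 replicate 1 or 2 or M1 replicate 1 or 3 (log2 difference -1.56 to -1.17, limma adjusted p = 0.067 to 0.084). Cd200r1 was also not called under quantile normalization (log2 difference -1.40, limma adjusted p = 0.055) or with no minimum FPKM (-1.53, 0.069).

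Sensors of microbes and their adaptors rose in part. Of 25 genes of the Toll-like and NOD receptors, 10 rose and 1 fell, with a median of 0.77. Nod1 and Nod2, cytosolic sensors of peptidoglycan, rose by 2.90 and 2.58, and Tlr3, a sensor of double-stranded RNA, by 2.29. Tlr13, a sensor of bacterial ribosomal RNA, fell from 107, 126 and 75.1 to 36.9, 45.6 and 25.6. Tlr4, the receptor for LPS, stood at 17.4, 18.9 and 3.69 in M0 and 1.80, 3.39 and 8.97 in M1. It was not called with all libraries (-1.27), and it was called lower without M0 replicate 3, at -1.94 (limma adjusted p = 0.023). Of 21 genes of inflammasomes and lytic cell death, 9 rose and 1 fell. Zbp1, a sensor of Z-form nucleic acid, rose by 5.15, and Mlkl, the executioner of necroptosis, by 3.08. Mefv (pyrin) rose by 2.89. Nlrp1b fell from 16.3, 9.09 and 7.84 to 1.44, 0.907 and 1.34. For Toll-like receptors and adaptors the counts without M0 replicate 3 were 11 higher and 2 lower and for inflammasome and lytic death 10 and 1.

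Of 19 IRF, STAT and JAK genes, 9 rose and none fell. Irf7, the master factor of type I interferon, stood at 1.53, 0.926 and 13.8 in M0 and 199, 153 and 289.8 in M1, Stat2 rose by 3.36, the AP-1 family factor Batf by 4.02 and the kinase Jak2 by 3.27. Among NF-κB subunits and their inhibitors 11 of 18 rose. Nfkb2 rose from 14.1, 11.8 and 30.0 to 86.8, 120.3 and 100.1. Tnfaip3 (A20) and Nfkbia, which inhibit the pathway, rose by 2.44 and 2.42. Nfkbiz, another member of the list, rose by 2.18. Of 21 feedback inhibitors 7 rose and 2 fell. Socs3, which blocks signalling by gp130, was at 0.707, 0.372 and 34.5 in M0 and 243, 194 and 369 in M1, Socs1, which blocks JAK kinases, at 0.145, 0.2004 and 0.449 in M0 and 16.3, 12.7 and 13.3 in M1, and Irak3, a brake on Toll-like receptors, rose by 2.49. Zfp36l1 and Zfp36l2, which mark cytokine mRNAs for decay, fell (log2 differences of -2.35 and -1.79). Of 12 AP-1 and EGR genes 3 rose and 4 fell, with Ier3 at 2.98 and Egr2 at -2.25. For IRF and STAT factors the counts without M0 replicate 3 were 10 higher and none lower and for feedback inhibitors 8 and 2. The call of Nfkbia ended without M0 replicate 1 or M1 replicate 3 (log2 difference 2.08 to 2.30, limma adjusted p = 0.059 to 0.062). That of Nfkbiz ended without M0 replicate 1 or 2 or M1 replicate 1, 2 or 3 (log2 difference 1.71 to 2.40, limma adjusted p = 0.062 to 0.12). That of Ier3 ended without M0 replicate 1 or 2 or M1 replicate 1 or 3 (log2 difference 2.33 to 2.91, limma adjusted p = 0.074 to 0.09). That of Egr2 ended without M0 replicate 1 or 2 or M1 replicate 3 (log2 difference -2.06 to -1.86, limma adjusted p = 0.056 to 0.067). Nfkbia was also not called with no minimum FPKM (log2 difference 2.42, limma adjusted p = 0.051). Nfkbiz was also not called under quantile normalization (log2 difference 2.26, limma adjusted p = 0.052) or with no minimum FPKM (2.18, 0.094). Ier3 was also not called with no minimum FPKM (log2 difference 2.98, limma adjusted p = 0.074). Egr2 was also not called under quantile normalization (log2 difference -1.99, limma adjusted p = 0.051) or with no minimum FPKM (-2.25, 0.055).

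The enzymes around nitric oxide were divided. With Nos2, the arginine transporter Slc7a2 rose from 0.657, 1.11 and 3.55 to 196, 229 and 138, and so did Ass1, which regenerates arginine from citrulline (3.63), Gch1, the first enzyme of the biopterin cofactor of Nos2 (2.46), and the mitochondrial arginase Arg2 (2.68). Oat, which uses ornithine, fell by 1.22 on the log2 scale. The other 7 of the 13 tested genes were not called. In the prostaglandin pathway Ptgs2 (COX-2) and Ptges, the inducible enzymes that make prostaglandin E2, rose from 0.197, 0.0729 and 4.26 to 175, 94.9 and 248 and from 1.15, 1.33 and 3.98 to 231, 187 and 154, and Pla2g4a, which frees their substrate, rose by 1.45. The constitutive Ptgs1 (COX-1) fell from 14.3, 5.97 and 11.8 to 1.04, 0.722 and 0.390. Hpgd, which breaks prostaglandins down, and Alox5ap, which serves leukotriene synthesis, fell (log2 differences of -2.45 and -2.54). In all, 3 of 14 genes rose and 7 fell, and 3 and 4 did so under median-of-ratios scaling. The call of Oat (-0.79) ended under median-of-ratios scaling. Oat was also not called without M0 replicate 3 and M1 replicate 2 together (log2 difference -0.99, limma adjusted p = 0.0058) or without M0 replicate 3 under median-of-ratios scaling (-0.64, 0.022).

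Counts in central carbon metabolism stand beside 7.81% of all rows called higher and 13.9% called lower, or 11.2% and 7.70% under median-of-ratios scaling. Acod1, which turns the TCA cycle intermediate aconitate into the antimicrobial itaconate, stood at 1.54, 0.897 and 77.6 in M0 and 1689.6, 1548 and 1644 in M1 (log2 difference 7.81, SE 1.34, limma adjusted p = 0.004). It was the only one of 32 TCA cycle genes that rose. Of the others, 8 fell, or 3 under median-of-ratios scaling, namely the isocitrate dehydrogenases Idh2 and Idh1 (log2 differences of -2.09 and -1.85), and the pyruvate dehydrogenase kinase Pdk1 (-1.80). Idh2 went from 16.8, 19.0 and 24.7 to 4.54, 5.41 and 2.34. Among 23 genes of glycolysis 4 rose and 1 fell. The hexose transporter Slc2a6 rose from 11.5, 3.25 and 23.4 to 132, 155 and 149, Pfkfb3, whose product activates phosphofructokinase, from 3.80, 6.25 and 2.76 to 50.4, 30.0 and 75.5, and the hexokinases Hk3 and Hk2 by 1.47 and 1.28, while the aldolase Aldoc fell by 1.55 on the log2 scale. Lactate dehydrogenase, Ldha, was at 80.4, 73.7 and 109 in M0 and 111, 79.8 and 121 in M1, and the groups overlapped. The median of the list was -0.01, and it was 0.43 under median-of-ratios scaling and 0.26 without M0 replicate 3. Of 8 pentose phosphate genes 3 fell and none did under that scaling. For glycolysis and lactate the counts without M0 replicate 3 were 6 higher and 1 lower and for pentose phosphate pathway none and 2. The call of Aldoc (-1.24) ended under median-of-ratios scaling. The call of Aldoc ended without M0 replicate 1 or M1 replicate 1, 2 or 3 (log2 difference -1.73 to -1.36, limma adjusted p = 0.054 to 0.09). Aldoc was also not called under quantile normalization (log2 difference -1.19, limma adjusted p = 0.098), with no minimum FPKM (-1.55, 0.08), without M0 replicate 3 and M1 replicate 2 together (-0.81, 0.047) or without M0 replicate 3 under median-of-ratios scaling (-0.69, 0.11).

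The respiratory chain draws on genes of the nucleus and of the mitochondrion. Of 70 nuclear genes 1 rose, Cycs (cytochrome c) at 1.12, and 1 fell, Ndufb11 at -1.06, beside 7.81% and 13.9% of all rows. The median was -0.30, beside -0.346 for all rows, and it was 0.09 under median-of-ratios scaling. Of the 13 protein genes of mitochondrial DNA, 6 fell and none rose, with a median of -0.89, or -0.45 under median-of-ratios scaling. mt-Nd3 fell from 40.4, 38.2 and 26.5 to 11.7, 19.5 and 7.84 and was the one still called under median-of-ratios scaling (-1.004). mt-Co1 stood at 2633, 2589.8 and 1957 in M0 and 2059.7, 2368 and 1261 in M1. M1 replicate 2 was the highest and M1 replicate 3 the lowest M1 library for all 13 genes, and without M0 replicate 3 and M1 replicate 2 the number called lower was 11. The call of Ndufb11 (-0.64) ended under median-of-ratios scaling. The call of Cycs ended without M0 replicate 2 (log2 difference 0.94, limma adjusted p = 0.017). That of Ndufb11 ended without M1 replicate 3 (log2 difference -0.98, limma adjusted p = 0.0033). Ndufb11 was also not called with limma arrayWeights (log2 difference -0.98, limma adjusted p = 0.00011) or without M0 replicate 3 under median-of-ratios scaling (-0.63, 0.01).

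Receptors that clear debris fell more often than they rose. Of 17 scavenger and efferocytosis genes, 9 fell and 3 rose, and 5 and 3 did so under median-of-ratios scaling. Of all rows 13.9% were called lower and 7.81% higher, or 7.7% and 11.2% under that scaling. Gas6, which bridges dying cells to receptors of the TAM family, fell from 53.4, 146 and 121 to 9.08, 10.1 and 6.03. The integrin chain Itgb5 fell by 2.15 on the log2 scale, and Lrp1, an endocytic receptor with high levels in M0, from 454, 454 and 337 to 122, 116 and 91.9. Cd36, a receptor for oxidized lipids, stood at 342, 465 and 117 in M0 and 66.2, 135 and 53.3 in M1. The members that rose were Marco, a receptor for bacteria, from 0.310, 1.49 and 40.8 to 339, 164 and 228, Msr1, by 1.64, and Olr1 (LOX-1), by 1.54. Of 19 C-type lectin, TREM and CD300 receptors 6 rose and 5 fell. Clec4e (Mincle), a sensor of mycobacterial glycolipid, rose from 2.001, 1.19 and 15.7 to 281, 253 and 131, and Clec7a (dectin-1), a sensor of fungal glucan, fell from 109, 203 and 66.9 to 11.8, 26.0 and 9.39. Trem2, a lipid receptor of resting macrophages, fell from 177, 194 and 94.8 to 23.6, 38.2 and 14.6, and Cd300lb and Cd300a fell (log2 differences of -3.73 and -2.68). Of 6 Fc receptor genes 4 rose and 1 fell. The inhibitory Fcgr2b rose from 4.89, 7.46 and 8.53 to 125, 123 and 133 and the activating Fcgr4 by 3.37, while the neonatal receptor Fcgrt fell by 1.08 on the log2 scale. For scavenger receptors and efferocytosis the counts without M0 replicate 3 were 4 higher and 9 lower, for C-type lectins, TREM and CD300 receptors 6 and 6, and for integrins and adhesion ligands 3 and 4. The calls of Cd36 (-1.30) and Fcgrt (-0.69) ended under median-of-ratios scaling. The call of Cd36 ended without M0 replicate 1 or 2 or M1 replicate 1 or 3 (log2 difference -1.63 to -1.34, limma adjusted p = 0.1 to 0.12). That of Fcgrt ended without M0 replicate 1 or M1 replicate 3 (log2 difference -0.999 to -0.84, limma adjusted p = 0.028 to 0.043). Cd36 was also not called with no minimum FPKM (log2 difference -1.75, limma adjusted p = 0.092). Fcgrt was also not called under quantile normalization (log2 difference -0.84, limma adjusted p = 0.051) or without M0 replicate 3 under median-of-ratios scaling (-0.94, 0.0058).

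Secreted defence proteins included the largest rise of all rows. Saa3, an acute-phase protein, stood at 0.553, 0.445 and 31.4 in M0 and 3350.2, 2396 and 2887 in M1 (log2 difference 9.42, SE 1.16, limma adjusted p = 0.0014). Lcn2, which withholds iron from bacteria, rose from 0.0249, 0.0428 and 1.05 to 157, 73.2 and 167, and the copper oxidase Cp (ceruloplasmin) and Hp (haptoglobin) by 4.41 and 4.14. Of 11 acute-phase and antimicrobial genes 8 rose and none fell. Of 14 complement genes 3 rose and 1 fell. Cfb (factor B), the protease of the alternative pathway, stood at 0.891, 0.731 and 4.31 in M0 and 711, 517 and 444 in M1, C3 rose from 8.44, 6.79 and 61.1 to 421, 322 and 443, and C1ra rose by 1.76. C1qb, the complement gene with the highest level, was at 542, 934 and 967 in M0 and 570.2, 589.7 and 999 in M1. Among proteases and coagulation genes 8 of 19 rose and 3 fell. The collagenases Mmp13 and Mmp14 rose by 5.11 and 4.50, the plasminogen activator inhibitor Serpinb2 by 4.27 and coagulation factor F10 by 4.12. Plau, the urokinase, fell from 225, 124 and 113 to 27.8, 36.9 and 7.29, and Timp2, an inhibitor of metalloproteinases, and thrombomodulin, Thbd, fell too (log2 differences of -2.51 and -1.82). Of 15 integrin and adhesion genes 3 rose and 3 fell, with Icam1 at 3.04, Itgal at 2.92 and Itga6 at -2.44. For acute-phase and antimicrobial proteins the counts without M0 replicate 3 were 9 higher and none lower, for complement 5 and 2, and for proteases, coagulation and plasminogen 9 and 4. The call of C1ra ended without M0 replicate 1 (log2 difference 1.58, limma adjusted p = 0.051).

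Genes of lipid handling mostly fell or were not called, beside 13.9% of all rows called lower. Of 22 genes of sterol synthesis and uptake, 11 fell and none rose, and 5 fell under median-of-ratios scaling. Stard4, which carries sterols, and the enzymes Dhcr7 and Idi1 were among those that fell (log2 differences of -1.95, -1.93 and -1.57). Ch25h, whose product 25-hydroxycholesterol shuts off sterol synthesis, rose from 0.377, 0.126 and 6.29 to 68.3, 22.4 and 91.4, and the sterol exporter Abca1 by 1.24. Scd2, a fatty acid desaturase, fell by 2.50. They belong to a list of 12 genes of sterol efflux and LXR targets, of which 3 rose and 1 fell. Of 25 fatty acid genes 10 fell, 5 of them also under median-of-ratios scaling, and 2 rose. Fasn (fatty acid synthase), Lpl (lipoprotein lipase) and Pparg were among those that fell, with Lpl going from 449, 502 and 308 to 70.1, 139 and 51.4. Acsl1, which charges fatty acids with coenzyme A, rose from 5.89, 4.59 and 8.57 to 89.3, 118 and 48.4. Of 33 lysosomal genes 1 rose and 7 fell, and 4 and 3 did so under median-of-ratios scaling. Lipa, the acid lipase, fell from 255, 306 and 159 to 40.3, 52.4 and 26.0, and Tfeb, the main regulator of lysosomal genes, and Gusb fell too (log2 differences of -1.72 and -1.45). Ctsc (cathepsin C) rose by 2.78. For sterol synthesis and uptake the counts without M0 replicate 3 were none higher and 9 lower, for fatty acid uptake, storage and oxidation 2 and 9, and for lysosome 1 and 8. Idi1 was also not called without M0 replicate 3 under median-of-ratios scaling (log2 difference -1.11, limma adjusted p = 0.072).

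Antioxidant genes and iron genes moved both ways, beside 7.81% of all rows called higher and 13.9% called lower. Of 23 NRF2 and antioxidant genes 6 rose and 4 fell, and 9 and 1 did so under median-of-ratios scaling. The mitochondrial superoxide dismutase Sod2 rose from 6.11, 7.03 and 19.0 to 133, 126 and 98.2, the cystine transporter Slc7a11 by 3.29 and the peroxiredoxin Prdx5 by 3.24. The glutathione peroxidase Gpx1 fell from 268, 188 and 205 to 48.1, 47.8 and 35.5. Of 7 subunits of the NADPH oxidase 3 rose, among them the catalytic Cybb, from 147, 148 and 170.4 to 479, 569.8 and 349. Of 13 iron genes 4 rose and 5 fell, and 6 and 3 did so under median-of-ratios scaling. Hmox1, which opens the haem ring, rose from 249, 233 and 238 to 1023, 746 and 862, while the iron exporter Slc40a1 (ferroportin) fell from 19.5, 29.2 and 9.62 to 2.21, 1.73 and 1.78, and the transferrin receptor Tfrc and the reductase Steap3 fell (log2 differences of -2.27 and -2.27). For NRF2 and antioxidant genes the counts without M0 replicate 3 were 8 higher and 5 lower. The call of Tfrc ended without M1 replicate 3 (log2 difference -2.20, limma adjusted p = 0.056). Tfrc was also not called under quantile normalization (log2 difference -1.98, limma adjusted p = 0.055), with no minimum FPKM (-2.27, 0.05), without M0 replicate 3 and M1 replicate 2 together (-2.48, 0.055) or without M0 replicate 3 under median-of-ratios scaling (-2.15, 0.056).

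The cell cycle list fell almost whole. Of 45 genes, 42 fell and none rose, with a median of -2.42; 40 fell under median-of-ratios scaling and 39 without M0 replicate 3. Rrm2, the small subunit of ribonucleotide reductase, which makes the building blocks of DNA, stood at 44.2, 17.0 and 65.4 in M0 and 2.13, 0.682 and 0.701 in M1. Ccna2 (cyclin A2), Uhrf1 and Top2a (topoisomerase II) fell (log2 differences of -3.61, -3.55 and -3.53), and Pcna, the sliding clamp of DNA polymerase, from 235, 179 and 209 to 52.0, 57.9 and 58.0. For Rrm2, Ccna2, Uhrf1 and Top2a M0 replicate 2 was the lowest M0 library and lay above every M1 library. The genes not called were Cdkn1a, an inhibitor of the cycle, at 38.0, 17.1 and 61.5 in M0 and 49.8, 46.0 and 85.5 in M1, Ccne1 (-0.70) and E2f1 (-0.91). An E2F motif lay in 4 of the 42 promoter windows of the list (9.52%), against 2.08% of those of all genes tested and 1.07% of all windows. Among 25 regulators of survival 9 rose and 1 fell. The anti-apoptotic Bcl2a1a and Bcl2a1d rose by 4.56 and 3.82, but they are near-identical copies of each other and of Bcl2a1b, and Cflar, which blocks caspase-8, rose by 2.52. Bcl2 fell from 2.72, 2.67 and 2.66 to 0.307, 0.621 and 0.271. For cell cycle and DNA replication the counts without M0 replicate 3 were none higher and 39 lower and for survival and apoptosis regulators 10 and 3. Bcl2a1b was also not called under quantile normalization (log2 difference 1.18, limma adjusted p = 0.06) or without M0 replicate 3 and M1 replicate 2 together (1.30, 0.079).

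**Figure D4:**
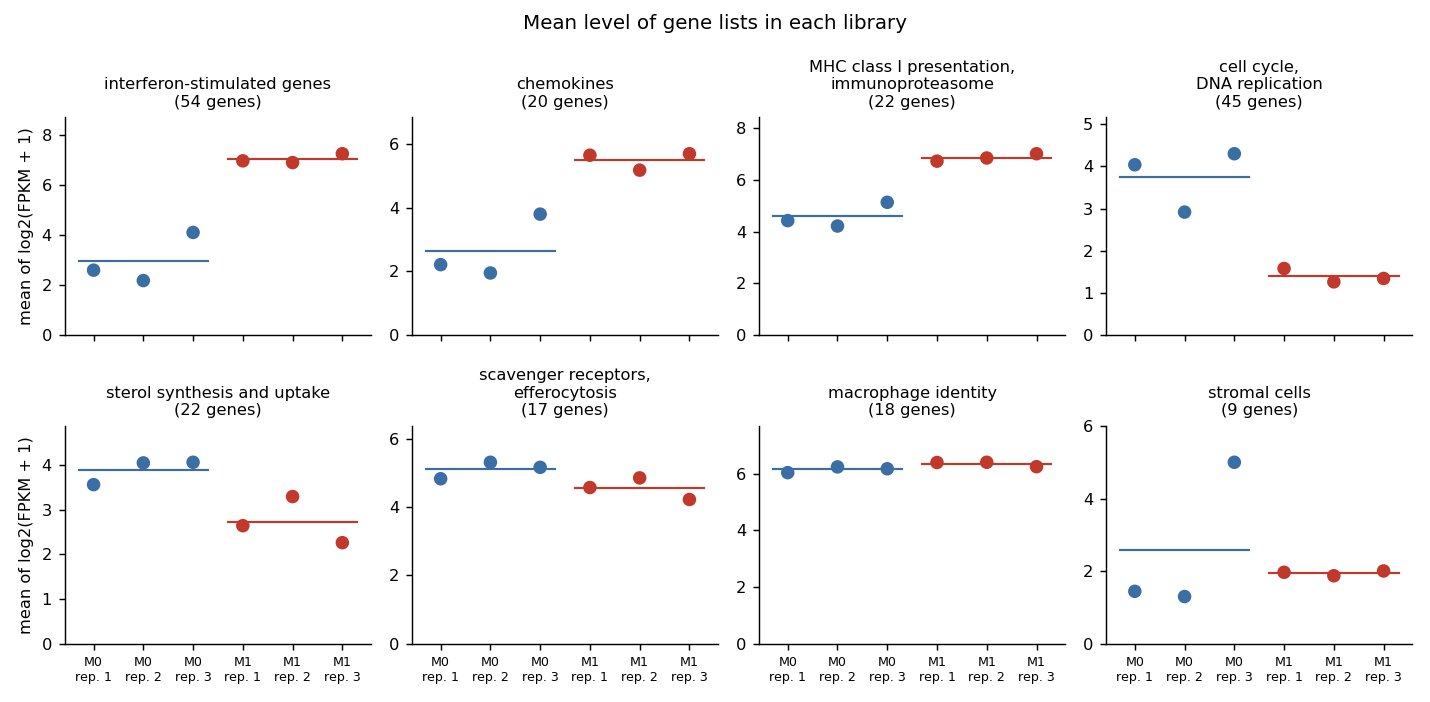
Each panel gives, for 8 lists, the mean of log2(FPKM + 1) over the tested members in each M0 (blue) and M1 (red) library, with the group mean as a line; all vertical axes start at 0. The interferon-stimulated genes and chemokines of M0 replicate 3 lie between the other M0 libraries and M1, its stromal genes stand above every other library, and the cell cycle genes are lower in M0 replicate 2 than in the other M0 libraries but higher there than in any M1 library.

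The counts of the lists that follow stand beside 7.81% of all rows called higher and 13.9% called lower. Of 12 purinergic genes 4 rose and 2 fell. Adora2a, an adenosine receptor that raises cyclic AMP, rose from 0.0371, 0.153 and 0.665 to 29.0, 35.9 and 30.1, and the ATP-degrading Entpd1 (CD39) fell by 1.73 on the log2 scale. Of 12 Notch pathway genes 2 rose, the second of them the ligand Jag1 (1.07), and 1 fell, the protease Adam10 (-1.02). Of 11 HIF genes 2 rose and 4 fell; while Hif1a rose, its relative Epas1 (HIF-2α) fell from 3.78, 7.73 and 7.35 to 0.379, 0.395 and 0.308. Of 23 heat shock and unfolded protein genes 2 rose, against 7.81% of all rows, the near-identical Hspa1a and Hspa1b (2.74 and 2.63). Of 13 clock genes 2 fell, against 13.9% of all rows, namely Rora and Bhlhe40, and none did under median-of-ratios scaling. Of 13 genes often used as standards 1 rose, Actb, from 1691, 1555 and 2607 to 3585, 3392 and 4890.1, and 3 fell, Hprt, Gusb and Tubb5. Hprt went from 59.8, 61.8 and 67.4 to 16.9, 17.4 and 15.99 (-1.85, SE 0.11, limma adjusted p = 0.0002). Gapdh, at 185, 147 and 339 in M0 and 215, 151 and 244 in M1, overlapped between the groups. For purinergic genes the counts without M0 replicate 3 were 4 higher and 3 lower, for Notch pathway 3 and 1, for heat shock and unfolded protein response 3 and 1, for circadian clock none and 3, and for housekeeping genes 1 and 2. The calls of Adam10 (-0.59), Rora (-0.95), Bhlhe40 (-0.68) and Tubb5 (-0.74) ended under median-of-ratios scaling. The call of Entpd1 ended without M0 replicate 1 or M1 replicate 3 (log2 difference -1.61 to -1.49, limma adjusted p = 0.053). That of Jag1 ended without M0 replicate 1 or 2 or M1 replicate 2 or 3 (log2 difference 0.76 to 1.10, limma adjusted p = 0.025 to 0.058). That of Adam10 ended without M0 replicate 1 or 2 or M1 replicate 3 (log2 difference -0.99 to -0.90, limma adjusted p = 0.016 to 0.02). That of Bhlhe40 ended without M0 replicate 1 or 2 or M1 replicate 2 or 3 (log2 difference -1.18 to -0.76, limma adjusted p = 0.054 to 0.1). That of Actb ended without M0 replicate 1 or 2 or M1 replicate 3 (log2 difference 0.88 to 0.95, limma adjusted p = 0.045 to 0.06). That of Tubb5 ended without M0 replicate 1 or 3 or M1 replicate 1, 2 or 3 (log2 difference -1.23 to -0.85, limma adjusted p = 0.053 to 0.089). That of Rora ended without M0 replicate 2 or M1 replicate 3 (log2 difference -0.98, limma adjusted p = 0.015 to 0.018). Jag1 was also not called with no minimum FPKM (log2 difference 1.07, limma adjusted p = 0.052). Adam10 was also not called with FPKM rescaled to one total per library (log2 difference -0.997, limma adjusted p = 0.0063) or without M0 replicate 3 under median-of-ratios scaling (-0.73, 0.0086). Rora was also not called under quantile normalization (log2 difference -0.87, limma adjusted p = 0.032). Bhlhe40 was also not called under quantile normalization (log2 difference -0.81, limma adjusted p = 0.12), with no minimum FPKM (-1.06, 0.086), with limma arrayWeights (-0.93, 0.0068) or without M0 replicate 3 under median-of-ratios scaling (-0.95, 0.048). Actb was also not called with no minimum FPKM (log2 difference 1.04, limma adjusted p = 0.16). Tubb5 was also not called with no minimum FPKM (log2 difference -1.18, limma adjusted p = 0.074), without M0 replicate 3 and M1 replicate 2 together (-0.79, 0.11) or without M0 replicate 3 under median-of-ratios scaling (-0.40, 0.32).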

How the data were processed

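RNA of bone marrow-derived macrophages was sequenced from strand-specific libraries. The authors deposited FPKM per gene and library, made with Cufflinks-type methods, in separate tables for M0 and M1. The submitters' processing notes name Bowtie 0.12.2 and the mm9 build. No column was left unassigned. Read counts were not used here. Only 30.9% to 32.9% of low values fell within 0.05 of a whole number of fragments, against 10.0% if they were spread evenly, so no count test was run. Depth was taken as the value that made this share largest, 30790000 to 39680000 fragments per library. With so low a share it is only a rough estimate, and FPKM gives no counting error.

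Rows were joined by name and kept where 3 or more of the 6 libraries had an FPKM of 1 or above. log2(FPKM + 1) was fitted with limma 3.58.1 in R 4.3.3 (trended eBayes), adjusted over all tested rows, and called at an adjusted p under 0.05 and a difference of at least 1. The procedure was tested on simulated data. Alternatives changed the pseudocount, the filter, the scaling, the weights, the block and the libraries. The groups followed the sample labels. The gene lists, drawn from textbook knowledge, were chosen with earlier results of these data known. Lists are described by counts and medians beside all rows, with no test of their own. Some genes are not reported here.

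Named genes were the study's markers, the list of 12 genes around its comparison within M1, the 10 largest non-overlapping changes in each direction, up to 4 rises and 4 falls and the most abundant member of each list, and the 3 most abundant rows of each group. Of the others named, any member of the housekeeping and other-cell lists was open to naming, and these were chosen after their values were seen: Adgre1, Bcl2a1b, C5ar1, Calr, Ccl2, Ccl3, Ccne1, Cd74, Cd80, Cdkn1a, Ciita, Csf1r, Csf3, Cxcl2, E2f1, Erap1, Gapdh, Gbp8, Gch1, H2-Aa, H2-D1, Ifi207, Ifi27l2a, Ifnar2, Il10, Il27, Irf5, Isg15, Ldha, Nlrc5, Pdia3, Tlr4 and Tnf.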

Additional observations from a re-analysis of the deposited data

How the results depend on the processing

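With 1 library left out at a time, 999 to 1172 rows were higher and 1616 to 2078 lower. The count of lower rows was 1047 under median-of-ratios scaling, 1255 under quantile normalization, 890 (with 754 higher) where only the 6352 rows with a mean FPKM of at least 5 were tested, and 2986 with a pseudocount of 0.1. Without M0 replicate 3 and with median-of-ratios scaling together, 1600 rows were higher and 1040 lower. The other settings gave 1036 to 1280 higher and 1873 to 2394 lower, those without both M0 replicate 3 and M1 replicate 2, an alternative added after seeing the data, 1232 and 2199. The cause of these shifts was not tested, apart from the smaller number of rows at the higher minimum. Of 50 lists, the median moved by at least its spread between libraries of a group in 33 under median-of-ratios scaling and in 10 under quantile normalization. By medians, the HIF, iron and nitric oxide lists changed sign under both. Those of glycolysis, the nuclear respiratory chain and sterol efflux changed sign under median-of-ratios scaling too (to 0.43, 0.09 and 0.12).

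M0 and M1 carry the same replicate numbers, but the labels do not say that the samples were paired. Deviations from the group means of same-numbered libraries correlated over rows at 0.044, 0.252 and 0.194. Those of differently numbered libraries correlated at -0.215 to -0.005. Each M1 library correlated best with its own number. The deviations were taken from means that include the same libraries, so these correlations are not independent of each other. The Y-linked genes, given above, were present in M0 replicate 3 but not in M1 replicate 3. Whether the samples were paired was not tested. With the replicate block 1081 rows were higher and 1904 lower, and of the named calls that of Cxcl2 alone ended (log2 difference 3.60, limma adjusted p = 0.056).

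None of the named genes that were called changed direction under any of these settings. These uncalled ones did (log2 difference, M1 minus M0). Median-of-ratios scaling gave 0.27 for C1qb, 0.12 for Cd80, 0.37 for Gapdh, 0.33 for Gm47299, 0.35 for Irf5, 0.080 for Pdia3, 0.37 for Rn7s1, 0.37 for Rn7s2 and 0.075 for mt-Co1. M0 replicate 3 left out together with median-of-ratios scaling gave 0.42 for C1qb, 0.45 for C5ar1, 0.11 for Calr, 0.12 for Ccne1, 0.23 for Cd80, 0.73 for Gapdh, 0.36 for Gm47299, 0.27 for Irf5, 0.074 for Lyz2, 0.22 for Pdia3, 0.39 for Rn7s1 and 0.40 for Rn7s2. Quantile normalization gave 0.21 for Cd80 and -0.11 for Ldha. limma array weights gave -0.23 for Ciita, 0.13 for Gapdh, 0.022 for Gm47299, 0.058 for Rn7s1 and 0.064 for Rn7s2. With 1 library, or both M0 replicate 3 and M1 replicate 2, left out the range was -0.45 to 0.085 for C1qb, -1.88 to 0.30 for C5ar1, -0.50 to 0.74 for Ciita, -0.13 to 1.47 for Fbn1, -0.33 to 0.47 for Gapdh, -0.28 to 0.14 for Irf5 and -0.17 to 0.0016 for Rn7s2. FPKM alone gives no counting error, so genes near the minimum are the least certain.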

Other observations

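Of the 10 largest falls, all except that of Gm27517 were of histone genes of the replication-dependent clusters. Hist1h1b, a linker histone that is made as DNA is copied, stood at 131, 34.1 and 161 in M0 and 3.06, 0.531 and 0.505 in M1, and Hist2h2aa1 fell by 6.61 on the log2 scale. Of 59 such genes, grouped after their values were seen, 56 were called lower and none higher. Under median-of-ratios scaling 55 were lower, and without M0 replicate 3 57 were. Their summed FPKM was 5123, 1727 and 6230 in M0 and 391, 210.0 and 246 in M1. M0 replicate 2 was the lowest M0 library here too, and it lay above all M1 libraries. The rows Hist1h2af, Hist1h3i, Hist1h3b, Hist1h3g, Hist1h3h, Hist1h3c and Hist1h2bl fell by between 4.58 and 5.16 on the log2 scale, but such genes are near-identical copies, so the share of each is uncertain.

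Other groups and rows were also picked after their values were seen. Of 9 genes of the Ms4a family, which encode membrane proteins with 4 spans, 7 were called higher and none lower, with a median log2 difference of 3.43, and Ms4a4c stood at 0.568, 0.0732 and 2.30 in M0 and 311, 263 and 403 in M1. AW112010, a transcript that LPS and interferon are known to induce, stood at 1.06, 0.840 and 3.22 in M0 and 424, 451 and 374 in M1. Of 90 ribosomal protein genes 7 were called lower, against 13.9% of all rows, with a median of -0.70. Under median-of-ratios scaling 1 was lower and 1 higher, with a median of -0.27. Without M0 replicate 3, 5 were lower and 1 higher. Among the 251 tested rows that the assembly added without an annotated gene name, 68 (27.1%) were called higher and 20 (7.97%) lower. Of 164 lincRNA rows 27 (16.5%) were higher and 26 (15.9%) lower. The shares of all rows were 7.81% and 13.9%.

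Markers of further cell types were few. Of 3 tested endothelial markers Kdr and Eng rose, by 2.26 and 1.37, and Vwf fell by 1.54 on the log2 scale. Of 6 osteoclast markers Acp5 rose by 2.49, and Atp6v0d2 and Nfatc1 fell (log2 differences of -2.54 and -1.09). Under median-of-ratios scaling neither of the latter falls was called. Ighm, an immunoglobulin heavy chain, fell from 10.5, 13.6 and 2.75 to 0.297, 1.46 and 0.0682, and Apoa2, a liver gene, stood at 0.626, 0.848 and 0.701 in M0 and 1.98, 3.45 and 3.45 in M1. The calls of Vwf (-1.17), Atp6v0d2 (-2.12) and Nfatc1 (-0.72) ended under median-of-ratios scaling. The call of Vwf ended without M0 replicate 1 or 2 (log2 difference -1.43 to -1.34, limma adjusted p = 0.053 to 0.063). That of Atp6v0d2 ended without M0 replicate 1 or 2 or M1 replicate 1 or 3 (log2 difference -2.68 to -1.85, limma adjusted p = 0.072 to 0.094). That of Acp5 ended without M1 replicate 1 (log2 difference 2.38, limma adjusted p = 0.052). Vwf was also not called with no minimum FPKM (log2 difference -1.54, limma adjusted p = 0.051). Acp5 was also not called without M0 replicate 3 and M1 replicate 2 together (log2 difference 1.65, limma adjusted p = 0.061). Atp6v0d2 was also not called with no minimum FPKM (log2 difference -2.54, limma adjusted p = 0.087). Nfatc1 was also not called under quantile normalization (log2 difference -0.80, limma adjusted p = 0.0032) or without M0 replicate 3 under median-of-ratios scaling (-0.77, 0.0036). Apoa2 was also not called with limma arrayWeights (log2 difference 0.97, limma adjusted p = 0.002).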
